A study of Homo sapiens with 6 samples.

Results

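WNT5A and WNT5B, the ligands of the WNT5 subfamily, were examined together with the receptors ROR1, ROR2, RYK, FZD2 and FZD7, the Dickkopf genes DKK1 and DKK3, and AXIN2, in U87 cells exposed to rutaecarpine. These 10 genes were picked by name from the 60671 genes of the expression table, and each name matched 1 row. U87 is an established human glioblastoma cell line. The rutaecarpine group (n = 3 libraries) received 100 μM of the compound for 48 h in serum-free medium with 0.1% DMSO, and the control group (n = 3) received 0.1% DMSO alone for the same time. RNA was sequenced, and each gene was quantified in TPM (a transcript's share of a library, scaled for transcript length), so levels of different genes can be compared. The labels do not say whether the libraries of a group came from separate cultures, so the p values measure the spread between these libraries, which may be technical.

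Wnt proteins are secreted, lipid-modified ligands. In the canonical branch they bind a Frizzled receptor with LRP5 or LRP6 and stabilise β-catenin, which then acts with TCF/LEF factors on targets such as AXIN2, a scaffold of the complex that degrades β-catenin and so a feedback brake. WNT5A and WNT5B are the classical non-canonical ligands: through Frizzled proteins and the receptor tyrosine kinase-like proteins ROR1, ROR2 and RYK they act on the cytoskeleton, cell polarity and calcium. DKK1 blocks the canonical branch by binding LRP5 and LRP6, whereas DKK3 is a divergent Dickkopf whose role in Wnt signalling is less settled. In glioma cells, WNT5A is known mainly in connection with motility and invasion.

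Rutaecarpine-treated cells had a lower level of WNT5B, DKK1 and DKK3, by 2.35, 2.36 and 1.85 times in mean TPM. WNT5A went the other way and had a mean 2.85 times that of the control group, but its control libraries were so uneven that the gene did not pass the test with all 6 libraries. None of the 3 receptors that were expressed well enough to be tested passed. A gene was tested if 3 or more libraries listed it at 1 TPM or higher, which 8 of the 10 genes met. Of these 8, 3 fell, 0 rose and 5, WNT5A included, did not pass an adjusted p of 0.05 (limma, Benjamini-Hochberg adjustment over 14377 genes). Over all genes tested, 9.29% passed and 4.68% passed as lower. The stricter rule for differentially expressed genes (DEGs), which also asks for an absolute log2 fold change above 1, was met by WNT5B among the members and by 3.51% of all genes. All rutaecarpine libraries lay on one side of all controls in 6 of the 8 (75%), against 33.3% of all genes. The median log2 fold change was -0.08 over the 8 members and 0.08 over all genes tested. Across the alternatives in processing, the number of members that passed ranged from 0, with the replicate number as a block, to 4.

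**Figure D1:**
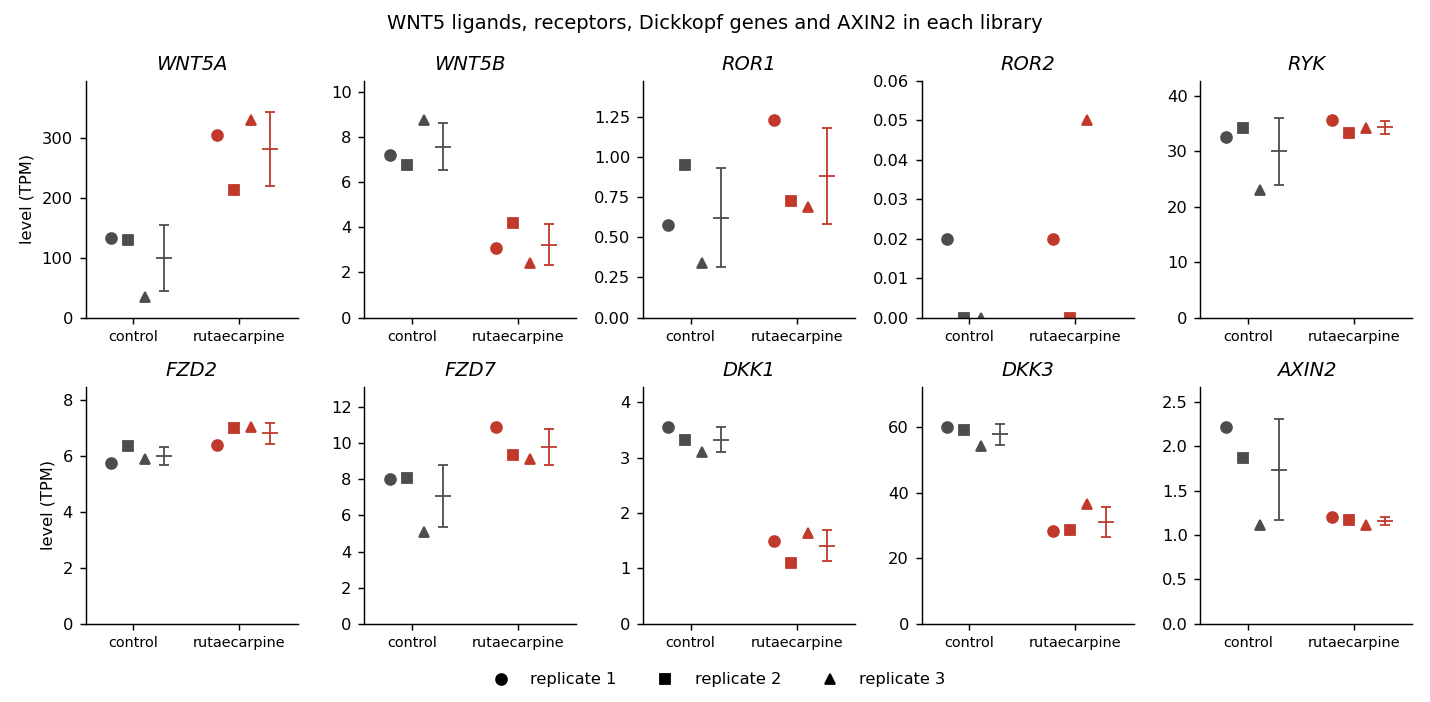
Level in TPM (y axis, from 0) of each of the 10 genes in the 3 control (grey) and 3 rutaecarpine (red) libraries; bars give the mean ± SD of a group and are left out for ROR2, which has libraries at 0. WNT5A lies higher and WNT5B, DKK1 and DKK3 lie lower in every rutaecarpine library than in any control library, and control replicate 3 has the lowest WNT5A.

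The libraries were not equally alike. Control replicate 3 had a median log2(TPM + 1) of 3.56 over the tested genes, against 3.95 and 3.97 in the other controls and 3.81 to 4.00 after rutaecarpine. Control replicate 3 was the lowest of its group in 62.3% of all tested genes and in 6 of the 8 tested members, and rutaecarpine replicate 2 in 56.2% and 3 of the 8. The glioblastoma label was checked with 8 glial and mesenchymal genes, of which 5 were tested, 1 (OLIG2) rose and 2 (VIM and NES) fell. VIM had 4430 to 7968 TPM, CD44 415 to 837 TPM and GFAP 3.48 to 5.41 TPM, whereas AQP4 was listed at 0 in all 6 libraries and S100B and SOX2 did not exceed 0.25 and 0.06 TPM. CDKN2A, CDKN2B and MTAP, in a region known to be deleted in U87, did not exceed 0.06 TPM. Of 10 markers of immune, endothelial and epithelial cells, CD68, a lysosomal protein gene, was the only one expressed well enough to test, and it fell from 473 ± 33.0 to 342 ± 20.7 TPM. The summed level of the 10 markers was 455 to 512 TPM in the control group and 320 to 360 TPM after rutaecarpine, and the other 9 stayed at or below 1.33 TPM. In bulk RNA, fewer cells expressing a gene and less RNA of that gene per cell cannot be told apart.

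RefSeq promoters (GRCh38.p14, 250 bases before to 50 bases after a start site) were at hand for 6 of the 10 genes, 8 promoters in all, with a pair of start sites each for WNT5A and WNT5B. FZD2, FZD7, DKK3 and AXIN2 had no entry. The study treats rutaecarpine as an agonist of the aryl hydrocarbon receptor (AhR), so both strands were searched for the AhR core GCGTG, for the dioxin response element TNGCGTG, which contains that core, and for the TCF/LEF motif ATCAAAG. The core was found in 4 of the 8 promoters, those of ROR1, ROR2, RYK and the upstream start site of WNT5A, and in 36.5% of all 35116 promoters. TNGCGTG was in 0 of the 8 and in 5.51% of all promoters, and ATCAAAG in 0 of the 8 and in 2.62%. These counts say only which letters lie in these windows. DKK3, which also fell, had no entry. Of the tested genes with an entry, WNT5A, WNT5B and DKK1 moved most, and their upstream sequences are shown. They are given 5′ to 3′ on the strand of the gene, with GCGTG or its reverse complement in capitals.
WNT5A, upstream start site, the 30 bases around the core (chr3:55487367-55487396, minus strand): cttttgcacaatCACGCccacatttggggt
WNT5A, downstream start site, the 250 bases before it (chr3:55481399-55481648, minus strand): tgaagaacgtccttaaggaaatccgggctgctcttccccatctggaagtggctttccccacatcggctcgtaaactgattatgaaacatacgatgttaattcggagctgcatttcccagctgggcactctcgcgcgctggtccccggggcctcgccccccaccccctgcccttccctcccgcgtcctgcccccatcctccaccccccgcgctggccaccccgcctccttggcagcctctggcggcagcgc
WNT5B, downstream start site, the part of its upstream sequence outside annotated exons (chr12:1628981-1629196, plus strand): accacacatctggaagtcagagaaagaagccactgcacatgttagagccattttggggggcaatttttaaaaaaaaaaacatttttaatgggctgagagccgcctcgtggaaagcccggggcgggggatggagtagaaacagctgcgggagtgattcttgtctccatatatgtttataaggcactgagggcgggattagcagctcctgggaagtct
DKK1, the 250 bases before the start site (chr10:52314031-52314280, plus strand): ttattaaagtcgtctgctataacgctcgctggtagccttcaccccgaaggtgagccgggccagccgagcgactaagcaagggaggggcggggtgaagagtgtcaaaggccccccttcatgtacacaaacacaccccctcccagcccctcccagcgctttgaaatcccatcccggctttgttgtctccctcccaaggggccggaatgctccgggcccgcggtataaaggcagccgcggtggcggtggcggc
The upstream start site of WNT5A lies 5908 bases from the downstream one, and the start sites of WNT5B lie 12175 bases apart. Gene-level TPM do not tell which start site the RNA came from. The WNT5A core ends 73 bases before its start site, within sequence that GENCODE release 29 annotates as exon of WNT5A. The stretches of WNT5A (64.4% G or C), WNT5B (48.6%) and DKK1 (62.8%) printed here hold none of the 3 motifs.

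WNT5A (ENSG00000114251, chromosome 3, 55465715 to 55490539, minus strand, GRCh38) was the most abundant Wnt ligand gene in 5 of the 6 libraries. It had 133, 130 and 35.1 TPM in control replicates 1 to 3 and 306, 213 and 330 TPM in rutaecarpine replicates 1 to 3. Every rutaecarpine library was above every control library, but control replicate 3 stood far below the other controls, which were within a few TPM of each other. The means were 99.2 ± 55.6 and 283 ± 61.9 TPM (SD, n = 3 each). The log2 fold change was 1.70 (standard error, SE, 0.50, 95% interval 0.53 to 2.87), and the gene missed the threshold (adjusted p = 0.0863, limma). Without control replicate 3 the difference was smaller and its error smaller still, with a log2 fold change of 1.07 (SE 0.17) and an adjusted p of 0.00511 in limma. Leaving out any of the other libraries gave log2 fold changes from 1.58 to 2.02, none past the test. Without rutaecarpine replicate 2, the lowest-median library of its group, the log2 fold change was 1.89 (adjusted p = 0.161, limma). The following alternatives, which also bear on the uneven libraries, passed in limma, with folds of different size. Of them, the removal of length and GC trends and the fit of 4 libraries were added after the data were seen. The difference was 1.61 on the log2 scale with the libraries centred on their medians (adjusted p = 0.0388) and 1.60 with trends on transcript length and GC content removed (0.0281). The fold was smaller, 1.23 on that scale, with library weights, which gave control replicate 3 a weight of 0.12 (0.00199), and 1.27 in the 4 libraries left without the lowest-median one of each group (0.000307).

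WNT5A-AS1, an antisense RNA gene that overlaps WNT5A on the other strand, had 7.14, 3.51 and 1.38 TPM in the controls and 12.4, 7.33 and 21.8 TPM after rutaecarpine. Its groups did not overlap, though the highest control and the lowest rutaecarpine library were close. The log2 fold change was 1.62 (SE 0.52, limma adjusted p = 0.109). Whether the libraries kept strand is not given in the sources used here, so reads of WNT5A and of its antisense gene may have been mixed.

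WNT5B (ENSG00000111186, chromosome 12, 1529891 to 1647243, plus strand) was expressed at a much lower level than WNT5A. It had 7.22, 6.76 and 8.73 TPM in the controls and 3.06, 4.21 and 2.40 TPM after rutaecarpine. The groups did not overlap, and control replicate 3, lowest for WNT5A, was the highest for WNT5B. WNT5B fell from 7.57 ± 1.03 to 3.22 ± 0.92 TPM (SD, n = 3 each), a log2 fold change of -1.04 (SE 0.21, limma adjusted p = 0.0258). The call was close to the threshold. It was kept without control replicate 3 (adjusted p = 0.0197, limma) and without rutaecarpine replicate 2 (0.0387), and was lost without control replicate 1 (0.0771), control replicate 2 (0.0653), rutaecarpine replicate 1 (0.110) and rutaecarpine replicate 3 (0.111). The log2 fold change stayed between -1.20 and -0.89 in these 6 fits. Without control replicate 3 it was -0.94, so WNT5B no longer met the DEG rule there, and WNT5A was the member that did. The same exchange was seen with length and GC trends removed, where WNT5B had -0.93. FBXL14, a gene on the opposite strand, overlaps WNT5B in the annotation.

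The balance between the paralogues is a description of the same values, with no test. The TPM of WNT5A divided by that of WNT5B was 18.4, 19.2 and 4.02 in the controls and 99.8, 50.5 and 137 after rutaecarpine, so the lowest treated ratio was above the highest control ratio. On the log2(TPM + 1) scale, WNT5A exceeded WNT5B by 3.33 ± 1.25 in the control group and by 6.07 ± 0.64 after rutaecarpine (SD, n = 3 each). The difference between these group values was 2.74, and it lay between 2.02, without control replicate 3, and 3.11 when single libraries were left out. Summed over all 19 WNT genes, WNT5A gave 65.0%, 64.8% and 32.3% of the TPM in the controls and 85.9%, 83.4% and 87.8% after rutaecarpine. The remainder was mostly WNT7B, a ligand best known for canonical signalling, which had 57.7, 56.5 and 59.4 TPM in the controls and 41.8, 33.0 and 38.0 TPM after rutaecarpine. In control replicate 3, WNT7B was the larger of the pair, with 54.6% of the sum.

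**Figure D2:**
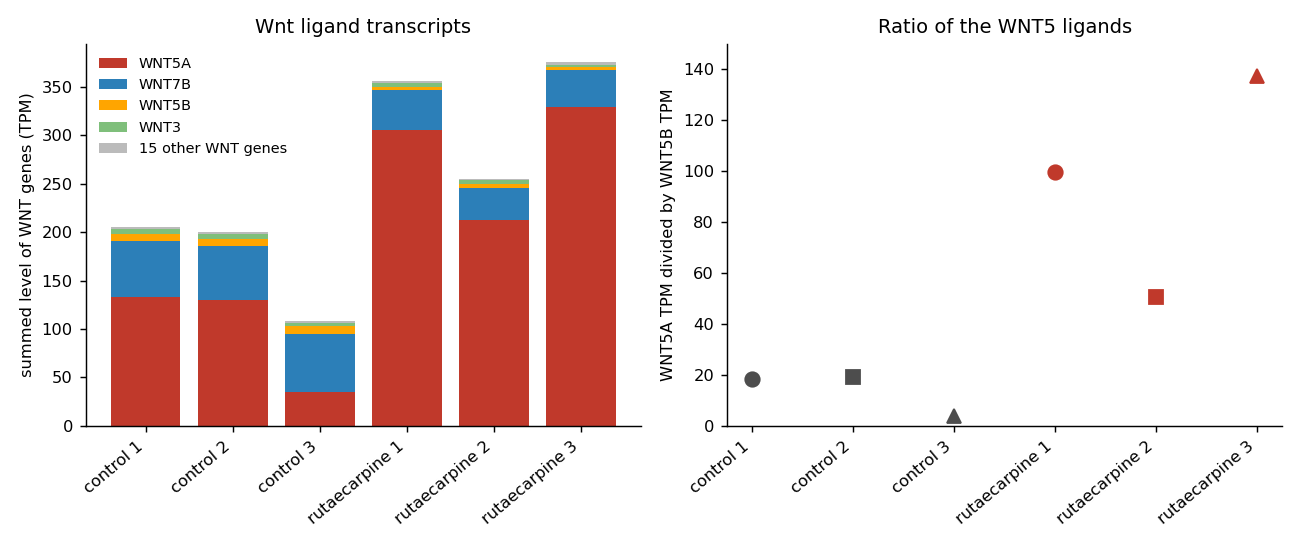
Left, summed TPM of the 19 WNT genes in each library, stacked by gene; right, WNT5A TPM divided by WNT5B TPM in each library (circles, squares and triangles mark replicates 1, 2 and 3). The WNT5A share is 83.4% to 87.8% after rutaecarpine and 32.3% to 65.0% in the controls, and the ratio is lowest in control replicate 3, at 4.02.

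WNT7B passed the test, with a log2 fold change of -0.61 (SE 0.11, limma adjusted p = 0.0162), and its groups did not overlap. Among the other 16 WNT genes, WNT3 had 4.37 ± 1.05 TPM without and 3.37 ± 0.52 TPM with rutaecarpine, WNT10B lay between 0.68 and 1.53 TPM, and 14 were too low to test. WNT2, WNT7A, WNT8A and WNT11 were listed at 0 in all 6 libraries. The genes that process and export Wnt proteins were expressed. PORCN, the acyltransferase that attaches the lipid, had 24.9 ± 4.15 TPM without and 33.2 ± 2.36 TPM with rutaecarpine (adjusted p = 0.135, limma). WLS, the carrier that brings Wnt proteins to the cell surface, had 165 ± 21.5 and 156 ± 11.9 TPM (adjusted p = 0.701, limma). None of the 4 secretion genes passed in limma, and 2 of the 4 had an unadjusted p under 0.05, against 24.4% of all tested genes.

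Of the 5 receptor members, RYK, a catalytically inactive kinase-like receptor for Wnt proteins, was the most abundant. RYK (ENSG00000163785, chromosome 3, 134065303 to 134250744) had 32.6, 34.2 and 23.0 TPM in the controls and 35.5, 33.3 and 34.1 TPM after rutaecarpine. The groups overlapped, and control replicate 3 was the one library apart from the rest. The log2 fold change was 0.21 (95% interval -0.17 to 0.59, adjusted p = 0.464, limma), and 0.04 without control replicate 3.

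FZD7 (ENSG00000155760, chromosome 2, 202034587 to 202038445), a Frizzled receptor used in both branches, had 8.04, 8.09 and 5.07 TPM in the controls and 10.9, 9.35 and 9.12 TPM after rutaecarpine. The groups did not overlap, and the gap was small when control replicate 3 was set aside. The log2 fold change of 0.44 (95% interval -0.04 to 0.92) did not pass the test (adjusted p = 0.241, limma) and was 0.25 without control replicate 3. FZD2 (ENSG00000180340, chromosome 17, 44557459 to 44559570), a Frizzled receptor for WNT5A, had the smallest fold change of the tested members with all libraries. Without control replicate 3 the log2 fold change of RYK was smaller, at 0.04 against 0.15 for FZD2. FZD2 had 5.75, 6.35 and 5.88 TPM in the controls and 6.37, 6.98 and 7.04 TPM after rutaecarpine, so that the groups were barely apart. Its log2 fold change was 0.16 (95% interval -0.18 to 0.50, adjusted p = 0.543, limma). These intervals leave room for a change of up to the upper bound given, and a missed threshold does not show that the receptors were equal.

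The ROR receptors were near the lower end of the measurement. ROR1 (ENSG00000185483, chromosome 1, 63774022 to 64181498) had 0.58, 0.95 and 0.34 TPM in the controls and 1.23, 0.73 and 0.69 TPM after rutaecarpine, with overlapping groups. ROR2 (ENSG00000169071, chromosome 9, 91563091 to 91950162), the receptor most often linked to WNT5A, was listed at 0.02 TPM in control replicate 1, at 0.02 and 0.05 TPM in rutaecarpine replicates 1 and 3, and at 0 in the other 3 libraries. Neither gene entered the test. In a fit without the filter on low values, ROR1 had a log2 fold change of 0.22 (95% interval -0.26 to 0.70, adjusted p = 0.644, limma), on a scale that shrinks changes of genes this low. The number of reads behind these values is unknown.

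Among 14 receptor genes, the 10 Frizzled genes with ROR1, ROR2, RYK and PTK7, RYK was second by mean TPM in the control group and first after rutaecarpine. PTK7, a kinase-dead co-receptor of planar polarity signalling, was first in the control group with 34.2 ± 2.59 TPM, which was within 1 SD of RYK at 29.9 ± 6.02 TPM. After rutaecarpine, RYK had 34.3 ± 1.14 TPM and PTK7 24.1 ± 1.75 TPM, and their libraries did not overlap. FZD8 was next in both groups with 22.0 ± 1.22 and 17.1 ± 0.66 TPM. FZD6 and FZD1, at 13.5 ± 4.99 and 12.3 ± 1.77 TPM in the control group, did not differ beyond their spread. FZD7 and FZD2 followed, at 7.07 ± 1.73 and 5.99 ± 0.32 TPM in the control group, within 1 SD of FZD7, and at 9.80 ± 0.98 and 6.80 ± 0.37 TPM after rutaecarpine. FZD3, FZD5, FZD4, ROR1 and ROR2 were at or below 3.44 TPM in every library, and FZD9 and FZD10 were listed at 0. The co-receptor genes LRP5, LRP6, MCAM and MUSK of the same list were not ranked, and MCAM, a cell adhesion molecule, lay above all 14, at 121 ± 22.2 TPM without and 91.2 ± 16.6 TPM with rutaecarpine (adjusted p = 0.237, limma). The order of FZD1 and FZD7 was exchanged between the groups, with FZD1 at 8.22 ± 0.41 TPM after rutaecarpine. Like PTK7, FZD8 and FZD1 were lower in every rutaecarpine library than in any control library. FZD8 and FZD1 did not pass with all libraries (adjusted p = 0.109 and 0.0898, limma) and passed without control replicate 3.

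**Figure D3:**
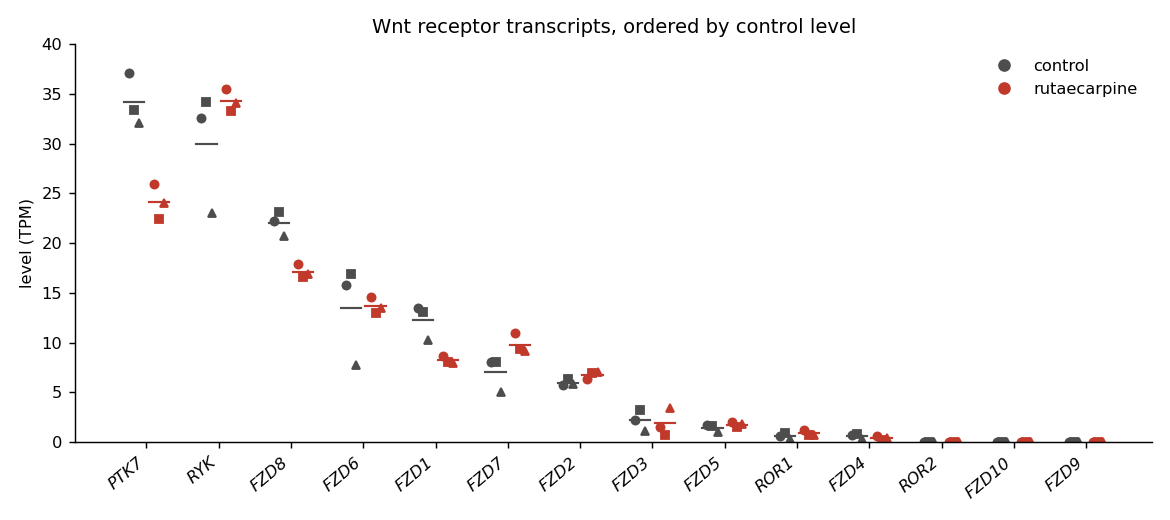
Level in TPM (y axis, from 0) of the 14 ranked receptor genes in each control (grey) and rutaecarpine (red) library, ordered by control mean; lines are group means and are left out where a library is at 0, and circles, squares and triangles mark replicates 1, 2 and 3. RYK exceeds the other receptor members several times over, ROR1 and ROR2 lie near 0, and PTK7, FZD8 and FZD1 are lower in all 3 rutaecarpine libraries than in any control library.

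Both Dickkopf members fell, from levels that were very different. DKK3 (ENSG00000050165, chromosome 11, 11963106 to 12009769, minus strand) had 60.1, 59.1 and 54.1 TPM in the controls and 28.3, 28.7 and 36.4 TPM after rutaecarpine. The groups did not overlap and the controls were tight, control replicate 3 included. DKK3 fell from 57.8 ± 3.19 to 31.1 ± 4.59 TPM (SD, n = 3 each), a log2 fold change of -0.88 (SE 0.12, 95% interval -1.17 to -0.58, limma adjusted p = 0.00646). It was the one member that passed in all 6 fits that left out a library, with log2 fold changes from -0.99 to -0.82. With the replicate number as a block, its adjusted p was 0.0563 (limma).

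DKK1 (ENSG00000107984, chromosome 10, 52314296 to 52318042, plus strand), itself a known target of the canonical branch, had 3.56, 3.31 and 3.11 TPM in the controls and 1.50, 1.09 and 1.64 TPM after rutaecarpine. The groups were well apart at this low level. DKK1 fell from 3.33 ± 0.23 to 1.41 ± 0.29 TPM (SD, n = 3 each), a log2 fold change of -0.85 (SE 0.17, limma adjusted p = 0.0260). On the log2(TPM + 0.1) scale, where low genes are shrunk less, the log2 fold change was -1.20. The call was kept without control replicate 3 (adjusted p = 0.0175, limma). It was lost without control replicate 1 (0.0919) or 2 (0.0859) and without rutaecarpine replicate 1 (0.0965), 2 (0.0998) or 3 (0.0821), where log2 fold changes lay between -0.92 and -0.75. Of the other Dickkopf genes, DKK2 reached 0.11 TPM at most and DKK4 was listed at 0. DKK3 thus made up 94.4% to 96.3% of the Dickkopf TPM in each library.

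AXIN2 (ENSG00000168646, chromosome 17, 65528563 to 65561647, minus strand) was low throughout. It had 2.22, 1.87 and 1.11 TPM in the controls and 1.20, 1.17 and 1.11 TPM after rutaecarpine. The rutaecarpine libraries and control replicate 3 were nearly equal, and control replicates 1 and 2 lay above them. The log2 fold change was -0.32 (95% interval -0.80 to 0.17, adjusted p = 0.390, limma). Without control replicate 3 it was -0.49 with an adjusted p of 0.109 (limma), so AXIN2 did not pass the test with or without that library.

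**Figure D4:**
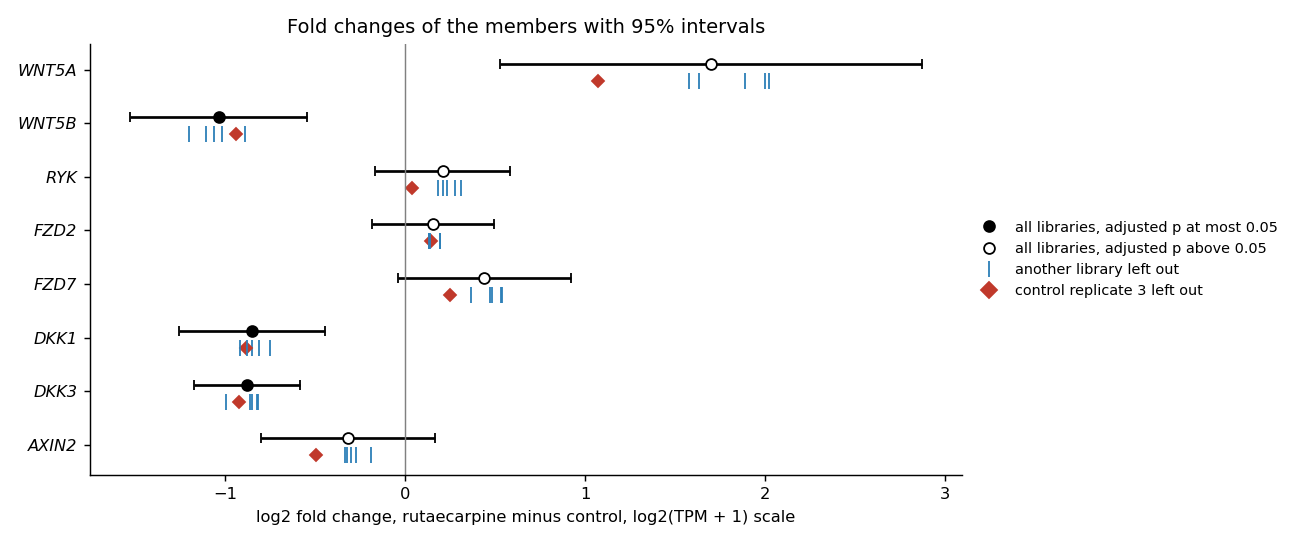
Log2 fold change of the 8 tested members on the log2(TPM + 1) scale (x axis) with 95% intervals from limma (black; filled where the adjusted p is at most 0.05), and the values when control replicate 3 (red diamonds) or another library (blue ticks) is left out. WNT5A moves from 1.70 to 1.07 without control replicate 3, whereas DKK3 and DKK1 stay between -0.99 and -0.75.

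The rest of the pathway was followed in 10 lists that together hold 133 other genes, of which 82 were tested. Of these 82, 1 rose, 4 fell and 77 did not pass, so 6.10% passed, against 9.29% of all genes. The groups did not overlap in 22 of the 82 (26.8%, against 33.3% of all genes), and the median log2 fold change was 0.02. The genes that passed were SFRP2, RSPO3, MYC, WNT7B and PTK7. Without control replicate 3, 15 genes passed in place of 5. The largest number, 23, was found without the lowest-median library of each group.

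SFRP2, a secreted protein that resembles the Wnt-binding part of Frizzled and modulates Wnt ligands, was the gene that rose. It had 2.73, 3.30 and 3.33 TPM in the controls and 7.24, 7.44 and 8.21 TPM after rutaecarpine, with groups far apart. Its log2 fold change was 1.07 (SE 0.16, limma adjusted p = 0.00739), and it passed in 5 of the 6 fits that left out a library, missing only without rutaecarpine replicate 3 (adjusted p = 0.0542, limma). The other secreted inhibitors were hardly expressed, as 14 of the 16 genes of the list were too low to test and SFRP5, WIF1, DKK4, DKKL1 and CER1 were listed at 0. KREMEN1, a DKK1 receptor, had 9.64 ± 1.89 TPM without and 11.1 ± 1.49 TPM with rutaecarpine (adjusted p = 0.559, limma).

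RSPO3, a secreted R-spondin that strengthens Wnt signalling through LGR receptors, had 7.83, 9.10 and 6.74 TPM in the controls and 3.52, 2.35 and 3.37 TPM after rutaecarpine. It fell by 1.13 on the log2 scale (SE 0.19, limma adjusted p = 0.0144), with groups that did not overlap. The call was kept in 1 of the 6 fits that left out a library, that without control replicate 3 (adjusted p = 0.00454, limma), and the others gave adjusted p values from 0.0512 to 0.0600. LGR4, its receptor, had 14.7 ± 6.56 TPM without and 20.3 ± 1.50 TPM with rutaecarpine (adjusted p = 0.373, limma), while LGR5 and LGR6 were at or below 0.05 TPM.

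PTK7 had a log2 fold change of -0.49 (SE 0.11, limma adjusted p = 0.0398). It passed without control replicate 3 (0.0120) and in none of the other 5 such fits, where the adjusted p ran from 0.102 to 0.160. WNT7B passed without control replicate 3 (0.00909) and without rutaecarpine replicate 1 (0.0374), and had adjusted p values from 0.0569 to 0.0784 in the other 4 fits.

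**Figure D5:**
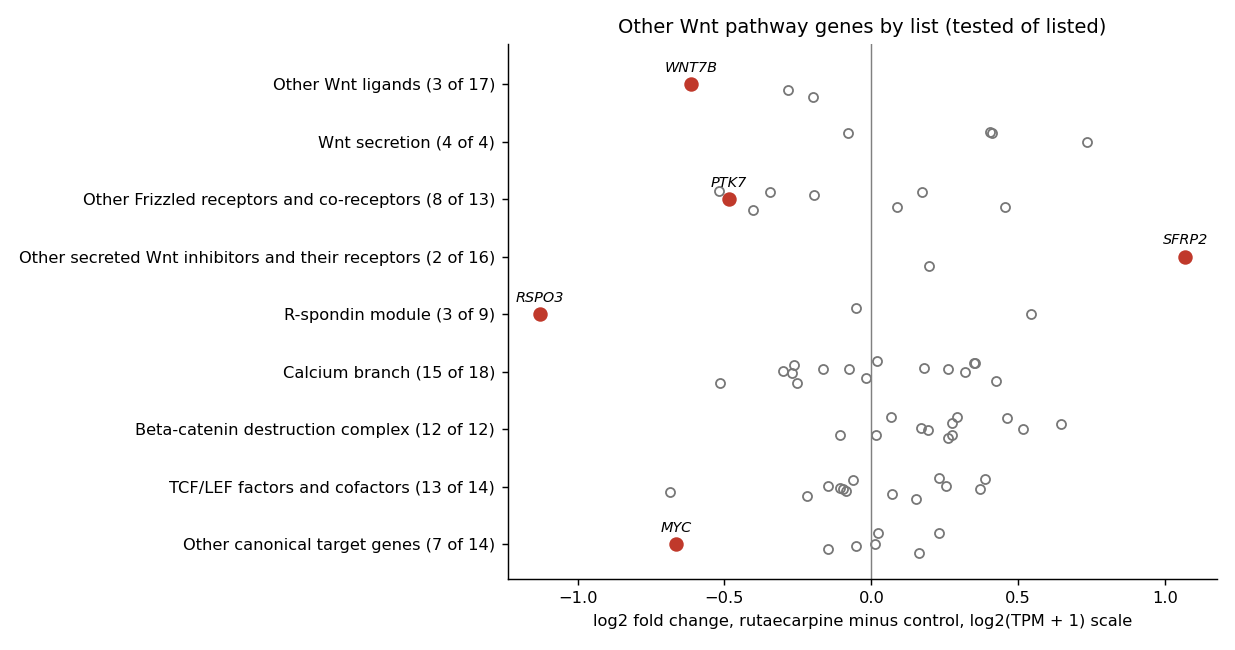
Log2 fold change on the log2(TPM + 1) scale (x axis) of the tested genes of 9 Wnt pathway lists (1 point per gene, vertical scatter without meaning; TCF7, LEF1 and ZNRF3 stand in 2 lists); red filled points have an adjusted p of at most 0.05. SFRP2 lies at 1.07, RSPO3 at -1.13, and WNT7B, MYC and PTK7 between -0.67 and -0.49.

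The intracellular lists described here showed no call in the test with all libraries. None of the 15 tested calcium-branch genes, 12 genes for β-catenin and its destruction complex and 13 TCF/LEF factors and cofactors passed. Their list medians were -0.02, 0.27 and -0.06. At an unadjusted p under 0.05 in limma the counts were 2, 1 and 2, where 24.4% of all tested genes were under that value. Without control replicate 3, PRKCA, CAMK2D and PPP3CA of the calcium branch, CTNNB1 and the cofactors TLE1 and TLE4 passed in limma. In that fit 2652 of 14188 genes passed in all. Against control replicates 1 and 2, TLE1 was higher in every rutaecarpine library and the other genes just named were lower. Further genes of these lists passed with library weights and without the lowest-median library of each group. TLE2, another cofactor, had 1.54 ± 0.14 TPM without and 0.59 ± 0.21 TPM with rutaecarpine (adjusted p = 0.0611, limma). TLE2 passed with median centring and in limma without the trend. CTNNB1, which encodes β-catenin, had 249, 252 and 147 TPM in the controls and 216, 201 and 219 TPM after rutaecarpine (adjusted p = 0.970, limma), with control replicate 3 again the lowest library. The CTNNB1 call depended on that library. It passed in limma without control replicate 3 and in the 4 libraries left without the lowest-median one of each group. Control replicate 3 was the lowest of its group in 67 of the 82 tested pathway genes, and rutaecarpine replicate 2 of its group in 65 of the 82. DVL1, the most abundant Dishevelled gene, had 68.2 to 74.8 TPM in the controls and 72.6 to 78.9 TPM after rutaecarpine.

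Among 7 tested canonical target genes besides AXIN2, MYC was the one that passed. MYC, a growth-promoting transcription factor that many other pathways also regulate, had 57.7, 57.3 and 55.3 TPM in the controls and 34.7, 32.8 and 39.0 TPM after rutaecarpine. Its groups were far apart, with a log2 fold change of -0.67 (SE 0.10, limma adjusted p = 0.00785), and it passed in all 6 fits that left out a library. CCND1, a cyclin, had 156, 154 and 89.6 TPM in the controls and 161, 126 and 148 TPM after rutaecarpine (adjusted p = 0.685, limma). NKD1, NKD2, APCDD1 and LGR5 did not exceed 0.05 TPM in any library.

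The genes whose pattern over the 6 libraries was most like that of each ligand were looked up among the tested genes with a mean of 5 TPM or more, by Pearson's r of log2(TPM + 1). The libraries are the same for all genes and share their scaling, so r is given as a description. The genes were picked for their likeness over all 6 libraries, group difference included, so their pattern and their calls follow from that choice. For WNT5A they were USP12, OXSR1, MTSS1, CEP170 and LHFPL2 (r from 0.9986 to 0.9993). CEP170, a centrosomal protein gene, had 39.2, 37.7 and 15.1 TPM in the controls and 77.2, 57.5 and 76.9 TPM after rutaecarpine. For WNT5B they were RNASET2, ABHD14A, VKORC1, RHBDL1 and LSM5 (r from 0.990 to 0.995). RNASET2, a secreted ribonuclease gene, had 51.9, 50.5 and 58.0 TPM in the controls and 30.7, 36.3 and 29.1 TPM after rutaecarpine.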

How the data were processed

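The deposited table, which per the labels comes from RSEM and GRCh38.p13, holds 1 TPM column per library, made by the authors. The aligner and the annotation release are not given in the sources used here. All 6 columns matched a sample by its description. TPM keep no read numbers, so depth is unknown and count methods were not used. The deposited TPM sum to between 990889 and 995734 per library.

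Groups and replicate numbers came from the labels. The linear model of limma 3.58.1 (R 4.3.3) was fitted to log2(TPM + 1) of 14377 genes with empirical Bayes moderation and a mean-variance trend, two-sided, after the filter given above. Adjustment by Benjamini-Hochberg was over all these genes, and thresholds followed the study's methods. For a single gene, an exact permutation of 3 against 3 libraries cannot give a p below 0.1. The procedure was also run on simulated data in which every library had noise of the same size. That run does not show how an outlying library such as control replicate 3 affects the calls. Tables and plots were made in Python 3.11.15.

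The members and lists were chosen with earlier results of these data known. Genes named are the members, list genes past the test or at 10 TPM or more in both groups or not expressed, and the 5 most like each ligand. WNT3, WNT10B, KREMEN1, LRP6, WNT5A-AS1, FBXL14, TLE2, FZD1, FZD3, FZD5 and GFAP were named to complete a family or check, after their values were seen. Other genes that overlap a member in the annotation, such as PRKG1-AS1 at DKK1 and ROR1-AS1 at ROR1, were not described. Positions came from GENCODE release 29. Alternatives were another pseudocount, other filters, median centring, no trend, the replicate number as a block, library weights, single libraries left out and a stricter threshold. Removal of length and GC trends (5-degree-of-freedom splines fitted to 14267 genes) and the fit without the lowest-median library of each group were added after the data were seen. The genes of 1 further pathway list are counted in the pathway totals, but the list is not reported here.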

Additional observations from a re-analysis of the deposited data

How the results depend on the processing

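Every tested member kept its direction in all 15 alternatives. WNT5A passed in 5 of them, WNT5B in 9, DKK1 in 8 and DKK3 in 14, while RYK, FZD2, FZD7 and AXIN2 passed in none, although AXIN2 came to an adjusted p of 0.0505 with library weights (limma). With the replicate number as a block, 0 members and 0 pathway genes passed in limma. In that fit 4 members and 10 pathway genes had an unadjusted p under 0.05, against 17.9% of all genes. Over all genes 428 passed and 318 were DEGs. For same-numbered libraries, the deviations from the group means had correlations across genes of 0.12, -0.27 and -0.22. Control replicate 3 and rutaecarpine replicate 2, the lowest-median libraries, gave 0.39. Deviations within a group of 3 are tied to each other, so whether the replicate numbers pair the libraries cannot be told from these values. Without the filter on low values, 29330 genes were tested, 1 member passed and 0 were DEGs. The number of members that were DEGs was 2 with a pseudocount of 0.1, with median centring, with library weights and with the 4 libraries left after removing the lowest-median one of each group, and 0 at an adjusted p of at most 0.001, where 94 genes were DEGs in all. Library weights gave 22 pathway genes and 3962 genes past the test, and the 4 libraries gave 23 and 3207. When single libraries were left out, between 1 and 4 members passed and between 0 and 1 were DEGs, between 1 and 15 pathway genes passed, between 500 and 2652 genes passed and between 320 and 585 were DEGs. In each of these counts past the test, the highest value was that without control replicate 3. Centring moved the median log2 fold change of all genes from 0.08 to -0.01 and the split of DEGs from 289 higher and 216 lower to 251 and 295. The cause of these shifts was not tested. Depth is unknown, so ROR1 and ROR2 could not be judged beyond their listed values.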
